A study of Homo sapiens with 12 samples.

Results

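The USP family of deubiquitinases, other than USP15, USP4, USP11 and USP18, was examined in KBM7 and K562 cells depleted of USP15. Members were the protein-coding genes of the deposited tables whose symbol is USP followed by a number, with or without an X, less those 4 genes. This gave 46 members among the 31316 genes of either table, with 45 in the KBM7 table, 45 in the K562 table and 44 in both. USP26 was listed only for K562 and USP41 only for KBM7. KBM7 and K562 are human lines of chronic myeloid leukemia in blast crisis, grown in IMDM and in RPMI medium. Each line received 1 siRNA pool by lipid transfection, either targeting USP15 (siUSP15) or without a target (siCtrl), and total RNA was taken at 72 h. Libraries numbered 2 per group in KBM7 (KBM7 siUSP15, KBM7 siCtrl) and 4 per group in K562 (K562 siUSP15, K562 siCtrl), and neither line carried any other treatment. A single pool stood for each siRNA, so an effect of USP15 loss and an effect of the pool on other transcripts cannot be told apart. No source says that replicates were separate cultures, so p-values measure the spread between libraries only.

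USP proteases are cysteine enzymes that remove ubiquitin from proteins, and they form the largest family of deubiquitinases. Their substrates include histones, p53 and its ligase, DNA repair factors, membrane receptors and ubiquitin chains themselves. Several need a partner protein for full activity, such as UAF1 (the product of WDR48) for USP1, USP12 and USP46. USP15, USP4 and USP11 are close relatives that share their domain order. The question put to the data was whether RNA of the other family members rose or fell when USP15 was depleted.

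Total counts ranged from 23450607 to 29441118 per library in KBM7 and from 23020401 to 43566543 in K562. Values per library are counts scaled to library size with TMM factors (normalised CPM), and levels between genes are compared only per kilobase of exon (RPKM). Erythroid genes (KLF1 103 to 129 CPM and HBG2 1228 to 1750 CPM) marked K562, against at most 1.513 and 18.7 CPM in KBM7. PTPRC (447 to 491 CPM) and CD33 (79.95 to 97.4 CPM) marked KBM7, against at most 44.79 and 17.29 CPM in K562. TAL1 did not separate the lines, with 164.4 to 243.8 CPM in KBM7 and 212.7 to 252.8 CPM in K562. GATA1 had 18.65 to 32.94 CPM in KBM7 and 211.1 to 272.1 CPM in K562. MPO was low even in KBM7 (5.842 to 19.96 CPM). Of 8 genes of other tissues, KRT18 had 56.8 to 72.0 CPM in KBM7 and 261 to 363 CPM in K562, EPCAM had 82.5 to 97.0 CPM in K562, and the other values were at or under 4.95 CPM or not listed. Within K562, replicates 1 and 2 stood apart from replicates 3 and 4 on the first principal component, and these sets also differed in the share of mitochondrial counts (2.91% to 4.94% over all K562 libraries, lower in replicates 3 and 4). The K562 fit carried the sets as a block, and values without it are given beside it. The submitters name the K562 data batch corrected without stating the batches, and their labels number replicates 1 and 2 before replicates 3 and 4. The block was chosen on these grounds and with earlier results of these data known. Calls used an adjusted p (Benjamini-Hochberg over all genes) under 0.05 from the quasi-likelihood test of edgeR, 2-sided.

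USP15 RNA fell in both lines. It had 113 and 114 normalised CPM in KBM7 siUSP15, against 209.8 and 216 in KBM7 siCtrl, or 53.4% of the control mean. In K562 siUSP15, replicates 1 to 4 had 116, 134, 191 and 197 normalised CPM, against 269, 275, 343 and 330.01 in K562 siCtrl, or 52.4%. No siUSP15 library reached its line's controls. The log2 fold change was -0.91 in KBM7 (SE 0.0439, adjusted p = 1.58e-07, edgeR) and -0.96 in K562 (SE 0.0649, adjusted p = 4.67e-05, edgeR). Without the sets the K562 value was -0.93 with an adjusted p of 0.183 (edgeR).

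Upstream sequence is shown for the 2 members that were lower in both lines, USP12 and USP20, and for USP40, whose increase in KBM7 was the larger of the 2 that passed. RefSeq (GRCh38.p14) gave a window for 35 of the 46 members, and the 250 bases before RefSeq's start are printed 5′ to 3′. They span chr13:27171812-27172061 on the minus strand for USP12, chr9:129835208-129835457 on the plus strand for USP20 and chr2:233566783-233567032 on the minus strand for USP40. The deposited table starts USP12 and USP20 farther upstream than RefSeq does, so the USP20 window lies inside the bounds given there and the USP12 window overlaps them. Capitals mark matches, on either strand and allowed to overlap, to any of 7 short motifs of factors that bind promoters. Searched were GGGCGG for the SP family, then CCAAT for the factor NF-Y, and TGCGCA for the core of the site of NRF1. Also searched were CCGGAAG for proteins of the ETS family, the E-box CACGTG bound by MYC and relatives, and TGACG as part of the element bound by CREB, besides AGATAA for factors of the GATA family.
USP12: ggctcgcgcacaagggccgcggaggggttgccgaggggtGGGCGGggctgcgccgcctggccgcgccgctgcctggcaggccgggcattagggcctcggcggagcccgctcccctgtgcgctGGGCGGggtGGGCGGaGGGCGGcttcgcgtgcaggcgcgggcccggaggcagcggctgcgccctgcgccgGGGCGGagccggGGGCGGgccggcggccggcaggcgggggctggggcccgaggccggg
USP20: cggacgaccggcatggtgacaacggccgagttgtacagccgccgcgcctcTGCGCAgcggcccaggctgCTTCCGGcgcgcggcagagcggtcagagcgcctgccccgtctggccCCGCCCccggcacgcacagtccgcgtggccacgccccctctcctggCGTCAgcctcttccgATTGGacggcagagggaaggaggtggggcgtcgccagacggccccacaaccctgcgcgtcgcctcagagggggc
USP40: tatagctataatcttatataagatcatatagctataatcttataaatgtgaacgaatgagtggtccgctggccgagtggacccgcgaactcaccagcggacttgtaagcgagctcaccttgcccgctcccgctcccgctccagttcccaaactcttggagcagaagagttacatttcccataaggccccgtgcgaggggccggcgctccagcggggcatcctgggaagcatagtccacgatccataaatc

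The USP12 window held 6 matches, all to GGGCGG. The USP20 window held 5 matches, 1 each to the SP, NF-Y, NRF1, ETS and CRE motifs. The USP40 window held 0, and its GC content was 52.8%, against 84.8% for USP12 and 74.4% for USP20. Over all members with a window the median GC content was 70.4%, against 58% over 35116 windows of all genes. GGGCGG was present in 80% of the members' windows and in 42.6% of all windows, and TGCGCA in 20% and 6.89%. CCGGAAG was present in 22.9% and 8.52%, TGACG in 37.1% and 21.2%, and CCAAT in 25.7% and 32.0%. CACGTG was found in 5.71% of the members' windows and in 6.34% of all, and AGATAA in 2.86% and 9.17%. The windows of all genes were not limited to protein-coding or expressed genes, nor to a single window per gene as for the members. A contrast with them therefore cannot be read as particular to the USP family. These are matches of letters and not measured sites.

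In KBM7, more members fell than rose, and no member rose by more than 0.41 on the log2 scale among those that passed. Of 43 members tested, 2 were higher and 11 lower with siUSP15, while over all 14980 genes 13.2% were called higher and 15.8% lower. The lower members were thus 25.6% of those tested and the higher ones 4.65%. The median log2 fold change of the members was -0.05, against 0.00067 over all genes, and it was -0.017 without siCtrl replicate 2. Fewer members were called without siCtrl replicate 1 or siCtrl replicate 2, in fits that leave 1 library in that group. The share of all genes called in those fits is not given here. USP41 and USP50 had at most 2 counts in any KBM7 library and were not tested.

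USP20 and USP12 were the members that passed in both lines with the same direction. USP20, which with its close relative USP33 acts on membrane receptors and binds the VHL tumor suppressor, lies on chromosome 9 (129834698 to 129881838 in hg38, as for the positions of genes that follow). It had 63.4 and 62.0 normalised CPM in KBM7 siUSP15, against 78.7 and 82.9 in KBM7 siCtrl. In K562 siUSP15, replicates 1 to 4 had 236, 244, 207 and 205, against 304, 289, 243 and 243 in K562 siCtrl. Each siUSP15 library was below both siCtrl libraries of its own set, although the sets overlapped with one another. The log2 fold change was -0.36 in KBM7 (SE 0.0498, adjusted p = 0.000242, edgeR) and -0.27 in K562 (SE 0.0324, adjusted p = 0.00146, edgeR). USP20 was also the 1 member called in replicates 3 and 4 alone (-0.24, adjusted p = 0.0107, edgeR), and leaving out any single library did not end either call. Without the sets its K562 value was -0.27 with an adjusted p of 0.361 (edgeR). USP20 overlaps C9orf78 on the other strand by 1166 bases, and whether the counting used strand is not given in the sources used here, so reads in that stretch cannot be told apart. The fold change of C9orf78 was -0.14 on the log2 scale in KBM7 (adjusted p = 0.0281, edgeR) and 0.02 in K562 (adjusted p = 0.824, edgeR).

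USP12, which works with UAF1 and WDR20, lies on chromosome 13 (27066142 to 27171896). It had 62.4 and 61.4 normalised CPM in KBM7 siUSP15, against 71.7 and 74.4 in KBM7 siCtrl. In K562 siUSP15, replicates 1 to 4 had 47.2, 47.9, 39.1 and 39.9, against 53.6, 53.2, 42.9 and 41.9 in K562 siCtrl. Again each siUSP15 library lay below the siCtrl libraries of its set. The log2 fold change was -0.24 in KBM7 (SE 0.0491, adjusted p = 0.00384, edgeR) and -0.13 in K562 (SE 0.0372, adjusted p = 0.0322, edgeR). The KBM7 call was lost without siCtrl replicate 2 (adjusted p = 0.0589, edgeR). In K562 the call was lost when siCtrl replicate 1, 2 or 3 or siUSP15 replicate 1, 2 or 3 was left out (6 of 8 such fits), with an adjusted p of up to 0.125 (edgeR), with DESeq2 (0.0728), with no filter on low counts (0.202) and with the replicate block (0.0892). The other members that work with UAF1 did not pass in either line. USP1, which acts on FANCD2 and PCNA, had log2 fold changes of -0.05 in KBM7 and 0.09 in K562, and USP46 had -0.04 and -0.13.

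**Figure D1:**
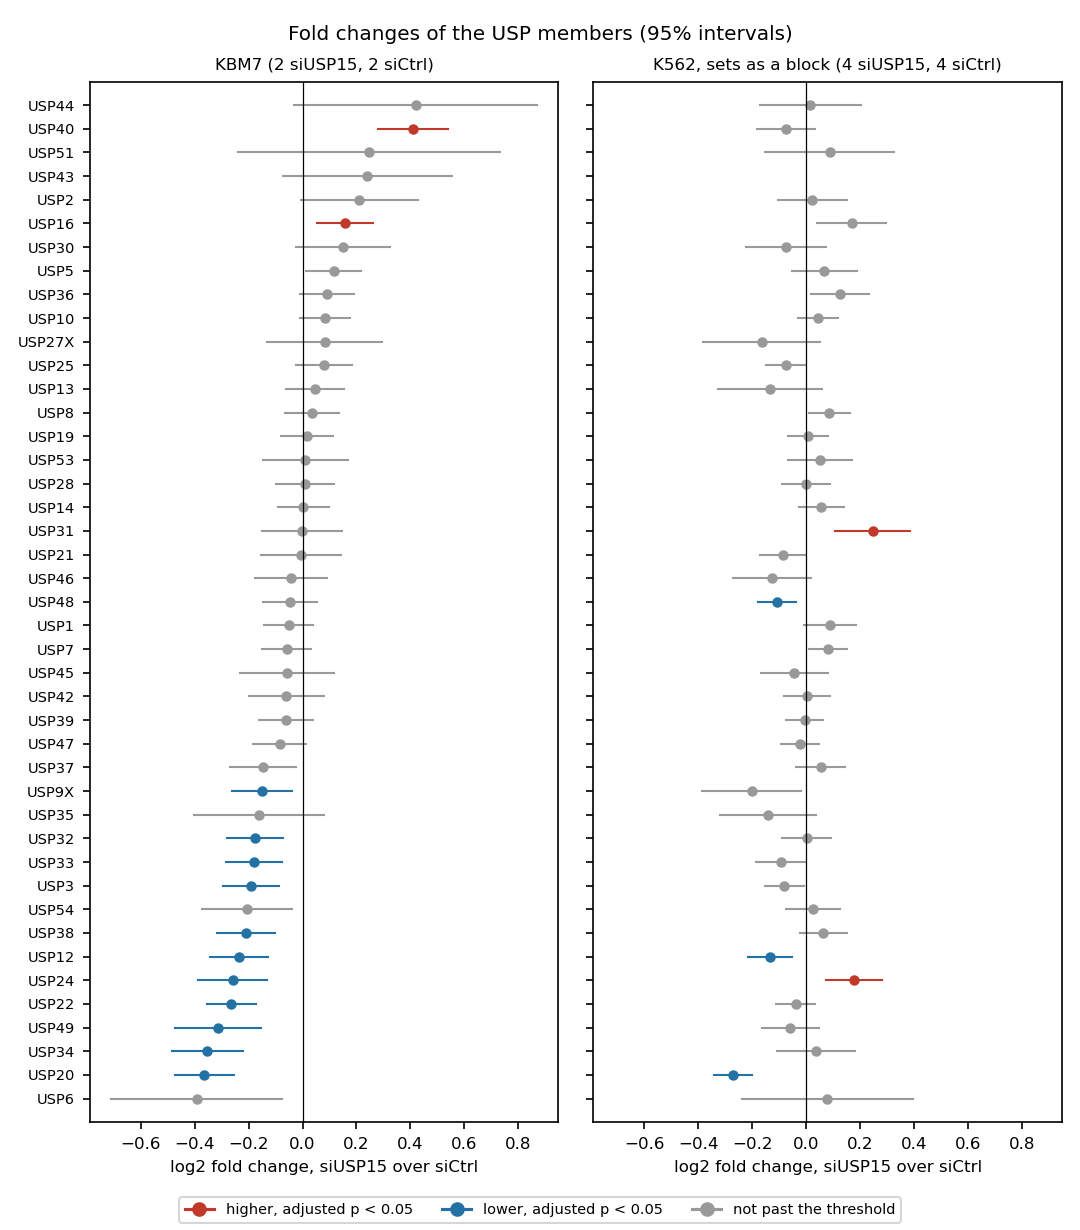
Log2 fold changes of siUSP15 over siCtrl for each member tested, with 95% intervals that are not adjusted for the number of members, in KBM7 (left) and in K562, where the sets were a block (right). Members are ordered by their KBM7 value; red marks members called higher (2 in KBM7, 2 in K562) and blue members called lower (11 in KBM7, 3 in K562).

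Of 8 members in the list for histones H2A and H2B, 1 was higher and 3 lower in KBM7, against 13.2% and 15.8% of all genes. USP22, the catalytic subunit of the SAGA deubiquitinase module, had the highest RPKM of all members in KBM7 siCtrl. It had 361 and 366 normalised CPM in KBM7 siUSP15, against 441 and 432 in KBM7 siCtrl, a log2 fold change of -0.26 (SE 0.0413, adjusted p = 0.000625, edgeR). In K562 it had 239, 255, 312 and 307 with siUSP15, against 249, 244, 327 and 327 with siCtrl (-0.04, adjusted p = 0.453, edgeR). The groups overlapped in replicates 1 and 2, while siUSP15 lay below siCtrl in replicates 3 and 4. An antisense gene overlaps USP22 by 2684 bases and averaged 1417 counts in K562 and 1.75 in KBM7. Its K562 log2 fold change was -0.03 (adjusted p = 0.687, edgeR).

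USP49, reported to act on H2B, had 32.0 and 35.6 normalised CPM in KBM7 siUSP15, against 39.9 and 44.1 in KBM7 siCtrl (log2 fold change -0.31, SE 0.0728, adjusted p = 0.0073, edgeR). The call was lost without siCtrl replicate 2 (-0.23, adjusted p = 0.0881, edgeR). In K562 it had 34.9, 36.7, 40.6 and 40.8 with siUSP15, against 41.1, 37.9, 39.5 and 40.7 with siCtrl. Its siUSP15 values lay below siCtrl in replicates 1 and 2, and the groups overlapped in replicates 3 and 4. The K562 log2 fold change of USP49 was -0.06 (adjusted p = 0.434, edgeR). USP3, which acts on H2A, had 97.7 and 100.2 normalised CPM in KBM7 siUSP15, against 116 and 109 in KBM7 siCtrl (-0.19, adjusted p = 0.0113, edgeR). Its call was lost without siCtrl replicate 1 (-0.14, adjusted p = 0.172, edgeR). In K562 USP3 had 64.8, 64.0, 79.99 and 79.4 with siUSP15, against 67.6, 67.5, 85.7 and 84.2 with siCtrl, each siUSP15 value below its own set (-0.08, adjusted p = 0.109, edgeR).

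USP16, an H2A protease needed for mitosis, was 1 of the 2 members called higher in KBM7. It had 87.4 and 85.6 normalised CPM in KBM7 siUSP15, against 79.2 and 75.96 in KBM7 siCtrl (log2 fold change 0.16, SE 0.0474, adjusted p = 0.0277, edgeR). The call was lost without siCtrl replicate 1 (adjusted p = 0.091, edgeR), without siCtrl replicate 2 (0.201) or without siUSP15 replicate 1 (0.0547), with DESeq2 (0.12) and in the fit of both lines (0.164). In K562 siUSP15, replicates 1 to 4 had 103, 102, 130.1 and 131, against 80.3, 81.5, 130.1 and 130.4 in K562 siCtrl. The groups were apart in replicates 1 and 2 and level in replicates 3 and 4. USP21, USP27X, USP44 and USP51, also tied to histones, did not pass in either line. USP44 and USP51 were scarce in KBM7 (at most 2.49 normalised CPM of USP44), and the KBM7 value of USP44 was 0.42 with an interval of -0.03 to 0.87.

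USP40, a member with few described substrates, had the largest increase among members called in KBM7. It lies on chromosome 2 (233475520 to 233566782). It had 52.3 and 50.96 normalised CPM in KBM7 siUSP15, against 40.2 and 37.5 in KBM7 siCtrl, with no overlap. The log2 fold change was 0.41 (SE 0.059, adjusted p = 0.000354, edgeR), and the call held whichever library was left out. In K562 siUSP15 it had 27.4, 26.3, 26.1 and 28.1, against 28.7, 30.0, 27.2 and 27.8 in K562 siCtrl. The K562 log2 fold change was -0.08 (SE 0.0493, adjusted p = 0.307, edgeR). Its siUSP15 values lay below siCtrl in replicates 1 and 2, and the groups overlapped in replicates 3 and 4. The K562 interval of -0.18 to 0.03 lay below the KBM7 interval of 0.28 to 0.54.

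USP24, a large protease reported to act on p53 and DNA damage factors, moved in opposite directions in the lines. It lies on chromosome 1 (55066359 to 55215113). It had 139 and 159 normalised CPM in KBM7 siUSP15, against 180.4 and 177 in KBM7 siCtrl (log2 fold change -0.26, SE 0.0587, adjusted p = 0.0063, edgeR). In K562 siUSP15, replicates 1 to 4 had 214, 195, 260.1 and 291, against 174, 190.3, 233 and 249.6 in K562 siCtrl, each siUSP15 value above its own set (0.18, SE 0.0479, adjusted p = 0.0293, edgeR). The KBM7 call was lost without siCtrl replicate 1 (-0.24, adjusted p = 0.0825, edgeR), and without siUSP15 replicate 1 the value was -0.16 (adjusted p = 0.0216, edgeR). The K562 call was lost without siCtrl replicate 1 (0.0911), siCtrl replicate 2 (0.051), siCtrl replicate 3 (0.0613) or siUSP15 replicate 1 (0.0994), and with the replicate block (0.0501). The other members tied to p53, MYC, the cell cycle and DNA repair, among them USP7, USP10, USP28 and USP47, did not pass in KBM7. Of 10 tested, this list had 0 higher and 1 lower in KBM7, against 13.2% and 15.8% of all genes, and 1 higher and 1 lower in K562, against 6.88% and 8.9%.

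The second K562 call of that list was USP48, which acts on H2A at sites of DNA repair and was listed by its role in repair. It had 117 and 119.5 normalised CPM in KBM7 siUSP15, against 119.8 and 124 in KBM7 siCtrl (-0.05, adjusted p = 0.475, edgeR). In K562 siUSP15 it had 257, 256, 243 and 247, against 284, 285, 263 and 249.8 in K562 siCtrl, below the controls of its own set each time (-0.11, SE 0.0327, adjusted p = 0.0448, edgeR). This call was lost in 6 of 8 fits that left out a library (siCtrl replicate 1, 2 or 3, or siUSP15 replicate 1, 2 or 3), with an adjusted p of up to 0.173 (edgeR), with no filter on low counts (0.204), with RLE size factors (0.0516) and with the replicate block (0.108). USP31, a member tied to NF-kB signaling, was the other member called higher in K562. It had 24.2, 23.1, 23.02 and 27.1 normalised CPM in K562 siUSP15, against 18.6, 20.1, 20.8 and 22.6 in K562 siCtrl (0.25, SE 0.0642, adjusted p = 0.0254, edgeR). Without siCtrl replicate 1, 2 or 3 or siUSP15 replicate 1 the adjusted p was 0.0502 to 0.0849 (edgeR). USP31 had 26.4 and 25.8 in KBM7 siUSP15, against 26.5 and 25.7 in KBM7 siCtrl, so the KBM7 groups did not differ beyond their spread.

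USP34 and USP38 passed in KBM7 and not in K562. USP34, the largest enzyme of the family and a regulator of Wnt signaling through axin, had 195 and 223 normalised CPM in KBM7 siUSP15, against 275 and 258 in KBM7 siCtrl (log2 fold change -0.35, SE 0.0598, adjusted p = 0.00108, edgeR). The call held whichever library was left out. In K562 siUSP15 it had 218, 189, 251 and 297, against 213, 217, 238 and 255 in K562 siCtrl. The groups overlapped within each set (0.04, adjusted p = 0.75, edgeR). AHSA2, which overlaps USP34 by 3741 bases on the other strand, had a KBM7 log2 fold change of 0.35 (adjusted p = 0.00117, edgeR), opposite in sign to USP34. USP38, which acts on kinases of innate signaling, had 60.4 and 62.7 in KBM7 siUSP15, against 70.2 and 72.1 in KBM7 siCtrl (-0.21, SE 0.0498, adjusted p = 0.00831, edgeR). Without siCtrl replicate 1 or 2 its adjusted p was 0.0601 or 0.0957 (edgeR). In K562 it had 75.1, 78.4, 80.6 and 79.1 with siUSP15, against 69.5, 71.5, 82.1 and 77.1 with siCtrl. Its siUSP15 values lay above siCtrl in replicates 1 and 2, and the groups overlapped in replicates 3 and 4. The K562 log2 fold change of USP38 was 0.06 (adjusted p = 0.294, edgeR).

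Of the 11 tested members that act on free ubiquitin, at the proteasome or on membranes and organelles, 4 were lower in KBM7 and 1 in K562, against 15.8% and 8.9% of all genes. Beside USP20 these were USP33, USP32 and USP9X. USP33, the close relative of USP20, had -0.18 on the log2 scale in KBM7 (adjusted p = 0.0142, edgeR), lost without siCtrl replicate 1 (0.169) or siUSP15 replicate 1 (0.064), and -0.09 in K562 (adjusted p = 0.143, edgeR). USP32, a membrane-bound member, had -0.18 in KBM7 (adjusted p = 0.0157, edgeR), lost without siCtrl replicate 1 (0.179), siCtrl replicate 2 (0.0571) or siUSP15 replicate 1 (0.0628), and with DESeq2 (0.0655). USP9X, which acts on the survival factor MCL1, had -0.15 in KBM7 (adjusted p = 0.0447, edgeR), lost without siCtrl replicate 1 (0.32) or siUSP15 replicate 1 (0.256, at -0.08), with DESeq2 (0.0653), with the replicate block (0.0546) and in the fit of both lines (0.333). USP5, which recycles unanchored ubiquitin chains, had 0.12 in KBM7 (adjusted p = 0.0851, edgeR), and USP14 of the proteasome and USP8 of endosomes did not pass in either line. USP8 overlaps USP50 by 13858 bases, and USP50 itself had at most 2 counts in any library.

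**Figure D2:**
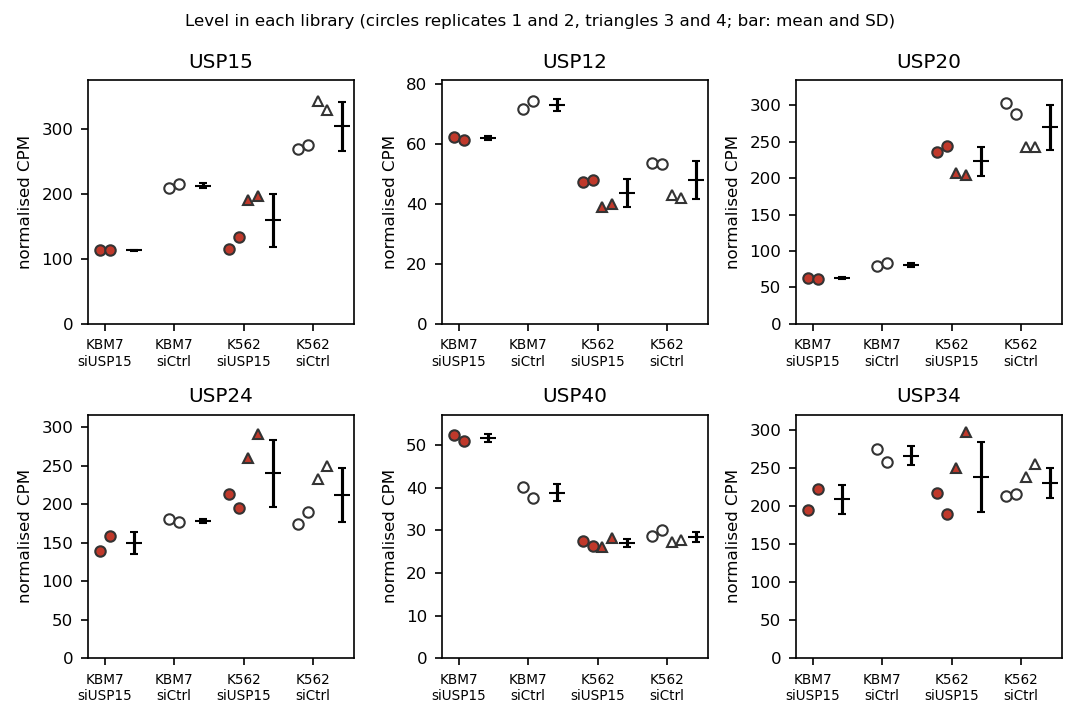
Normalised CPM in each library for USP15 and for 5 members, with siUSP15 libraries as filled and siCtrl libraries as open symbols, circles for replicates 1 and 2, triangles for replicates 3 and 4, and the mean and SD of each group beside them (n = 2 in KBM7, n = 4 in K562). USP20 and USP12 lay below the controls of their set in both lines, USP40 was above them in KBM7 only, and USP24 lay below in KBM7 and above within each K562 set.

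In K562, few members passed. Of 42 tested, 2 were higher and 3 lower with the sets as a block, against 6.88% higher and 8.9% lower over all 13731 genes. The members' median log2 fold change was 0.0019, against 0.00099 over all genes. The count of members called was 1 without siCtrl replicate 1, siCtrl replicate 2 or siUSP15 replicate 1, 3 without siCtrl replicate 3 or siUSP15 replicate 2, and 8 without siUSP15 replicate 4. The shares of all genes called in those fits are not given here. USP26, USP43 and USP50 were under the count filter (at most 14 counts, in USP43) and were not tested. Without the sets, 0 members passed with edgeR (lowest adjusted p 0.361), as did 0% of all genes, while 2 members and 1447 genes had an unadjusted p under 0.05. DESeq2 and limma-voom without the sets called 0 members too, with 3 and 2 under an unadjusted p of 0.05, and DESeq2 called 322 genes. With the replicate numbers as a block in place of the sets, 2 members passed, USP20 and USP31, against 7.44% of all genes.

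The K562 sets gave different counts. In replicates 1 and 2 alone 9 members were higher and 5 lower, against 17.3% and 17.1% of all genes, and in replicates 3 and 4 alone 1 member passed, against 2.01%. A test of the difference between the sets' siUSP15 effects, added after the data had been seen, called 5 of 42 members, against 13% of all genes. USP16 (0.34), USP5 (0.29) and USP1 (0.19) had a higher log2 effect in replicates 1 and 2, and USP9X (-0.47) and USP46 (-0.31) a lower one. USP9X had 253, 224, 274 and 309 normalised CPM in K562 siUSP15, against 325, 319, 277 and 294 in K562 siCtrl. It was below its controls in replicates 1 and 2 (-0.43, adjusted p = 8.54e-05, edgeR) and overlapped them in replicates 3 and 4. USP5 had 102, 109, 118 and 114 normalised CPM in K562 siUSP15, against 91.3, 90.9, 122 and 122 in K562 siCtrl, above its controls in replicates 1 and 2 and below them in replicates 3 and 4. USP1 had 164, 168, 213 and 199 with siUSP15, against 145, 147, 211 and 203 with siCtrl, and USP46 25.5, 27.6, 31.6 and 31.0 with siUSP15, against 30.9, 33.7, 31.3 and 29.99 with siCtrl. In replicates 3 and 4 the groups of both genes overlapped. USP15 itself differed between the sets, with log2 fold changes of -1.11 in replicates 1 and 2 and -0.79 in replicates 3 and 4 (difference -0.32, adjusted p = 0.0128, edgeR). The part of USP15 depletion, depth or mitochondrial share in these differences was not tested.

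**Figure D3:**
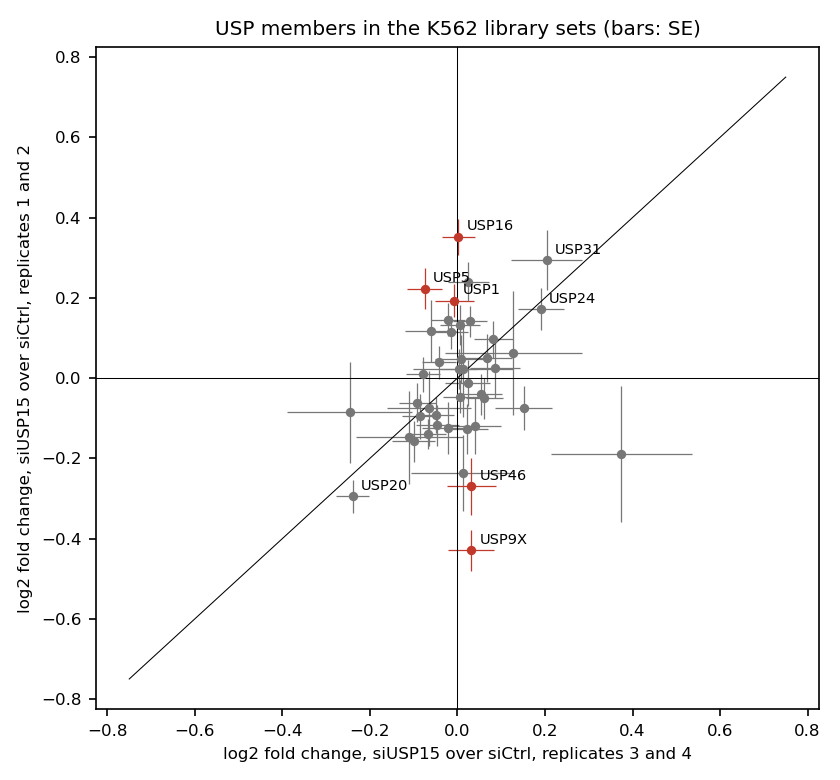
Log2 fold changes of the 42 members tested in K562, from replicates 3 and 4 (horizontal axis) and replicates 1 and 2 (vertical axis), each fitted alone, with standard errors as bars and a line of equal values. Red marks the 5 members whose effect differed between the sets; USP20 lay below 0 and USP24 and USP31 above 0 in both.

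USP36, a nucleolar protease, had 1 of the 8 lowest p-values of the members in K562. It had 95.3, 101, 125 and 136 normalised CPM in K562 siUSP15, against 83.3, 84.4, 125 and 132 in K562 siCtrl, with a gap in replicates 1 and 2 and overlap in replicates 3 and 4 (0.13, adjusted p = 0.102, edgeR). In KBM7 it had 126 and 121 with siUSP15, against 118 and 115 with siCtrl (0.09, adjusted p = 0.165, edgeR). USP39, a splicing factor of the family without protease activity, did not pass in either line. The 28 members tested in at least 1 line that passed in neither were USP1, USP2, USP5, USP6, USP7, USP8, USP10, USP13, USP14, USP19, USP21, USP25, USP27X, USP28, USP30, USP35, USP36, USP37, USP39, USP42, USP43, USP44, USP45, USP46, USP47, USP51, USP53 and USP54. Their log2 fold changes ran from -0.39 (USP6) to 0.42 (USP44) in KBM7 and from -0.17 (USP27X) to 0.13 (USP36) in K562.

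The effects were compared between lines in one fit over all 12 libraries. The difference, KBM7 minus K562, passed for 5 of 43 members, 1 higher and 4 lower, against 7.94% and 8.03% of 15833 genes. The effect on USP40 was higher in KBM7 by 0.49 on the log2 scale (SE 0.0805, adjusted p = 0.000478, edgeR). Effects on USP24 (-0.43, SE 0.0846, adjusted p = 0.00217), USP34 (-0.38, SE 0.105, adjusted p = 0.0189), USP38 (-0.27, SE 0.0735, adjusted p = 0.0187) and USP22 (-0.22, SE 0.0617, adjusted p = 0.0215) were lower in KBM7 (edgeR). The calls for USP40 and USP24 held whichever library was left out. Without KBM7 siCtrl replicate 1 or without KBM7 siUSP15 replicate 1 the count fell to 2, and without KBM7 siCtrl replicate 2 to 3. The adjusted p of USP34 was then up to 0.137, of USP38 up to 0.102 and of USP22 up to 0.103 (edgeR). USP22 also lost its call without KBM7 siUSP15 replicate 2 (0.0531) or K562 siCtrl replicate 2 (0.0545), and with the replicate block (0.0622). With no set block USP40 alone passed. The shares of all genes called in that fit and in those that left out a library are not given here. A change over all genes and one among the members therefore cannot be told apart from these counts. The difference of USP20 was -0.09 (adjusted p = 0.383, edgeR) and that of USP12 -0.10 (0.34), with intervals of -0.22 to 0.04 and -0.24 to 0.04.

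Across the 42 members tested in each line, the log2 fold changes of KBM7 and K562 had the same sign in 25 (59.5%), and Pearson's r was 0.17 and Spearman's rho 0.19. Over the 12412 genes tested in each line the sign was the same in 51.0%. No library was shared between these fits, but members are not replicates of each other.

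The size of change that the libraries could show was read from the intervals. In K562 with the sets, all 42 members had a 95% interval within 0.5 of 0 on the log2 scale. In KBM7, 38 of 43 did, and the rest were USP40 and the scarce USP6, USP43, USP44 and USP51. The highest upper bound was 0.87 in KBM7 (USP44) and 0.39 in K562 (USP6). Without the sets, 37 of the 42 K562 members had such an interval, and the highest upper bound was 0.63 (USP35).

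The summed level of all 45 listed members in each line was 543 ± 5.80 RPKM in KBM7 siUSP15 and 570.3 ± 8.11 in KBM7 siCtrl (SD, n = 2 each), or 95.2%. In K562 it was 599 ± 31.5 RPKM with siUSP15 and 603 ± 38.6 with siCtrl (SD over both sets, n = 4 each), or 99.2%. Replicates 1 and 2 had 568.7 and 574.1 RPKM with siUSP15, against 570.4 and 569.4 with siCtrl, and overlapped. Replicates 3 and 4 had 623.9 and 627.8 with siUSP15, below 637.4 and 636.2 with siCtrl. USP15 itself had 5.85 ± 0.0436 RPKM in KBM7 siUSP15 and 11.0 ± 0.22 in KBM7 siCtrl, and 8.21 ± 2.09 in K562 siUSP15 and 15.7 ± 1.94 in K562 siCtrl. The mean summed RPKM of the members was thus not above its control mean in either line, with a difference of -27.3 in KBM7 and -4.72 in K562. Fewer cells of a kind and less RNA per cell cannot be told apart in bulk libraries.

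In control cells the members spanned a wide range of levels. The highest means in KBM7 siCtrl were USP22 with 64.4 RPKM, USP1 with 55.5 and USP10 with 36.1. In K562 siCtrl the order differed between the sets. USP14 had 44.2, 44.8, 58.4 and 56.5 RPKM in replicates 1 to 4, below USP20 in replicates 1 and 2 and above it in replicates 3 and 4. The median member had 8.91 RPKM in KBM7 and 7.15 in K562, and 19 and 12 of 45 members lay above USP15. Between the lines, 36 of 43 members differed, 18 higher and 18 lower in KBM7, against 42.7% and 41% of 15833 genes. USP43 had 0.80 and 0.824 RPKM in KBM7 siCtrl, against 0.025, 0.115, 0.023 and 0.0302 in K562 siCtrl, and since it was under the count filter of K562 its fold is not given. The largest differences among members tested in each line were in USP13, a relative of USP5 (log2 3.29, SE 0.0672, adjusted p = 2.04e-18, edgeR), USP44 (-2.25, SE 0.142, adjusted p = 4.08e-11) and USP20 (-1.87, SE 0.047, adjusted p = 4.32e-17). USP13 had 5.62 and 5.28 RPKM in KBM7 siCtrl, against 0.473, 0.501, 0.469 and 0.582 in K562 siCtrl. USP20 had 14.3 and 15.04 RPKM in KBM7 siCtrl, against 55.1, 52.4, 44.03 and 44.1 in K562 siCtrl. Neither gene's lines overlapped. The lines came in separate tables, so cell line and anything else that differed between those tables cannot be told apart here.

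**Figure D4:**
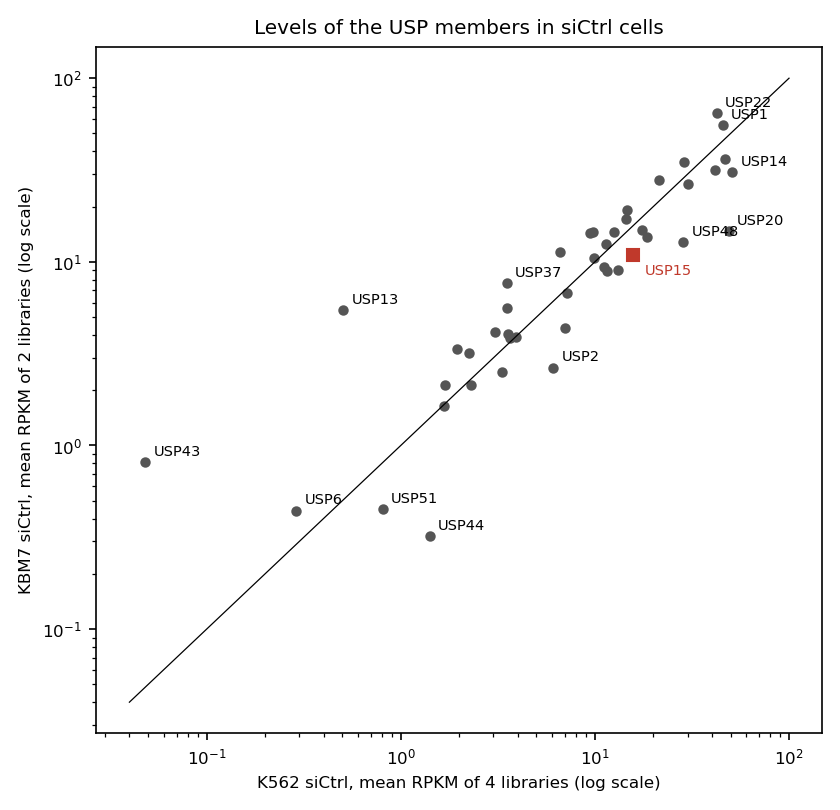
Mean RPKM of the members in KBM7 siCtrl (vertical axis, 2 libraries) against K562 siCtrl (horizontal axis, 4 libraries), both on log scales, with USP15 as a red square and a line of equal levels. USP13 and USP43 lay far above the line and USP44, USP20, USP2 and USP48 below it.

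Exon length is given beside the KBM7 calls because several lower members are long genes. Among 17 tested members with over 9000 bases of exon, 6 were lower in KBM7 (35.3%) and their median log2 fold change was -0.15, while among 26 shorter members 5 were lower (19.2%) with a median of -0.0016. Over all genes of the same lengths, 22.7% of 2701 long genes and 14.5% of 12044 shorter genes were lower. Across the 43 members the fold change had a Pearson's r of -0.36 with log2 exon length (Spearman's rho -0.39), and across all 14745 genes with a length r was -0.02. In K562 r over 42 members was 0.15 with the sets, -0.14 in replicates 1 and 2 and 0.51 in replicates 3 and 4. The points share their libraries, and the part of transcript length in the calls was not tested.

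USP32 has pseudogene copies, and USP6 arose in primates from a copy of USP32, so reads could be split between them. USP32P1 averaged 70.5 counts in KBM7 and 1.63 in K562, and the other listed copies of USP32, USP8, USP12 and USP24 at most 6.75. USP41, a near copy of USP18, had 1 or 2 counts in each KBM7 library, while USP18 had 91.4 ± 2.51 normalised CPM in KBM7 siUSP15 and 54.3 ± 2.63 in KBM7 siCtrl (SD, n = 2 each).

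Other genes of the ubiquitin system were counted from lists of other deubiquitinases, of partner proteins and of ubiquitin genes with their activating enzymes. In KBM7, 5 were higher and 8 lower of 54 tested, against 13.2% and 15.8% of all genes. Fewer of these genes were called without siCtrl replicate 1 or siCtrl replicate 2, in fits for which the share of all genes is not given here. Of 36 other deubiquitinases, 4 were higher and 3 lower. TNFAIP3, a brake on NF-kB signaling, had a log2 fold change of 0.63 (SE 0.114, adjusted p = 0.00176, edgeR), FAM63A of -0.38, PAN2, a subunit of an RNA deadenylase, of 0.29, and COPS6 of the COP9 signalosome of -0.23. Without siCtrl replicate 1 the adjusted p of COPS6 was 0.0785 (edgeR).

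Of 13 partners, 4 were lower and 1 higher in KBM7, against 15.8% and 13.2% of all genes. STAM, an endosomal sorting protein that binds USP8, had -0.52 (SE 0.0604, adjusted p = 7.08e-05, edgeR), and its relative STAM2 0.29. DMWD, a relative of the USP12 partner WDR20, had -0.44, and ENY2, a subunit of the SAGA module that holds USP22, had -0.19. Calls were lost for STAM2 without siCtrl replicate 2 (0.112), for DMWD without siCtrl replicate 1 (0.0571), and for ENY2 without siCtrl replicate 1 (0.132) or siUSP15 replicate 1 (0.0575). WDR48 and WDR20, the partners of USP12, did not pass in KBM7. Of 5 ubiquitin genes, 1 was called, UBA6, which activates ubiquitin (-0.18, adjusted p = 0.0128, edgeR), lost without siCtrl replicate 1 (0.153), siCtrl replicate 2 (0.0523) or siUSP15 replicate 1 (0.0605). RPS27A (0.11), which encodes ubiquitin joined to a ribosomal protein, did not pass.

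In K562, 3 were higher and 4 lower of 53 tested, against 6.88% and 8.9% of all genes, and 0 passed without the sets with edgeR, DESeq2 or limma-voom (6, 5 and 5 at an unadjusted p under 0.05). STAM2 was higher here too (0.25, SE 0.0459, adjusted p = 0.00736, edgeR), in every fit that left out a library, and UBA6 was again lower (-0.17, adjusted p = 0.0132, edgeR), lost without siCtrl replicate 1 (0.051), siCtrl replicate 2 (0.0619) or siUSP15 replicate 1 (0.051). The deubiquitinases OTUD4 (0.31), JOSD1 (-0.15), OTUD5 (-0.13) and YOD1 (0.14) and the polyubiquitin gene UBB (-0.14) also passed, while RPS27A (-0.07) and the partners SART3 (0.10), ATXN7L3 (0.08) and ATXN7 (-0.10) did not. Without siCtrl replicate 2 the adjusted p of OTUD4, JOSD1, OTUD5, YOD1 and UBB was 0.0575 to 0.161 (edgeR). Other libraries also ended calls when left out, siUSP15 replicate 1 for JOSD1, OTUD5, YOD1 and UBB, siCtrl replicate 1 or 4 for OTUD5 and YOD1, siUSP15 replicate 4 for OTUD5, and siUSP15 replicate 2 or 3 for YOD1. JOSD1 (0.0778) and OTUD5 (0.136) did not pass with no filter on low counts. The count was 4 without siCtrl replicate 1, 1 without siCtrl replicate 2 and 2 without siUSP15 replicate 1, and 4 with the replicate block. In replicates 1 and 2 alone 17 passed (32.1%), against 34.4% of all genes, and in replicates 3 and 4 alone 2 (3.77%), against 2.01%.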

How the data were processed

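Raw counts per gene were used as the authors deposited them, 1 table per cell line. The K562 table is named batch corrected, and whether its batches are the sets used here is not stated. The submitters name TopHat2 2.1.0 with hg38 and HTSeq, and the paper names Itreecount and Ensembl 77 for the same step. The authors' deposited log2 CPM (12 columns) and their columns of log2 fold change and adjusted p-value were not used. Whether counting used strand is not given in the sources used here. Members, lists and the K562 set block were chosen with earlier results of these data known.

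Genes were filtered with filterByExpr, scaled by TMM and tested with edgeR 4.0.16 in R 4.3.3, each line on its own and both together over shared gene identifiers. limma 3.58.1 and DESeq2 1.42.0 were alternatives. The tests were run on simulated counts too, but these held no difference between the K562 sets, so they do not bear on the set block. Exon lengths came from GENCODE 44 and 97.2% of identifiers had one. Same-numbered K562 libraries deviated together (r 0.55 to 0.70), but r was at most 0.09 once set means were removed, so the pairing comes from the sets. In KBM7 r was 0.00098.

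Named were members that passed in either line, with values per library for those in both lines, the 8 lowest p-values per line and those whose effect differed between lines. Of each other list the 4 lowest p-values per line were named, less some genes that are not reported here, and further called genes of those lists were chosen after their values were seen. No libraries were copies of each other.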

Additional observations from a re-analysis of the deposited data

Results flagged for a closer look

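Members whose siUSP15 effect differed between KBM7 and K562 in the test of the difference were USP40 (0.49, KBM7 minus K562 on the log2 scale), USP24 (-0.43), USP34 (-0.38), USP38 (-0.27) and USP22 (-0.22). USP40 was higher with siUSP15 in KBM7 and USP24 lower in KBM7 and higher in K562, while the other 3 passed as lower in KBM7 and did not pass in K562.

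Between the K562 sets, replicates 1 and 2 minus replicates 3 and 4, the effect differed for USP16 (0.34), USP9X (-0.47), USP5 (0.29), USP46 (-0.31) and USP1 (0.19). This test was added after the data had been seen.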

How the results depend on the processing

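Calls rested on few libraries. Leaving out 1 library gave 6 to 18 members called in KBM7, 1 to 8 in K562, 2 to 6 in the difference between lines and 29 to 36 between siCtrl of the lines, 7 to 15 and 1 to 10 genes of the other lists in KBM7 and K562, and 2 to 7 members in the difference between K562 sets. In KBM7 such fits leave 1 library in a group, whose spread is taken to be that of the other group. The cause was not tested. Except where stated, shares of all genes are not set beside these counts or those that follow. A change in calls over all genes and one among the members therefore cannot be told apart from them. With the replicate block, K562 gave 2 members and 4 genes of the other lists, KBM7 12 members, and the difference between lines 4. It ended the calls of USP9X in KBM7, of USP12, USP24, USP48, JOSD1, OTUD5 and YOD1 in K562 and of USP22 between lines, and changed no other call of a named gene. With no set block, K562 gave 0 members and 0 other genes and the difference between lines 1. Replicates 1 and 2 alone gave 14 members and 17 other genes, against 34.4% of all genes, and replicates 3 and 4 alone 1 and 2, against 2.01%. In KBM7, DESeq2 called 1 member higher and 9 lower, and the fit of both lines 1 and 10. In K562, RLE size factors called 2 members higher and 2 lower, and DESeq2 3 and 2, without USP12. No filter on low counts gave 4 and 2 in K562, without USP12 and USP48. Both DESeq2 and no filter thus also called members in K562 that the main fit did not call, which are not named here. No called value changed sign under the alternatives run.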
